A study of Homo sapiens with 8 samples.

Results

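The genes described are those of the integrins and of the cytoplasmic adaptors that couple them to actin: 26 integrin chains, of which 18 are alpha and 8 are beta chains, and 10 adaptors. They were taken by symbol from a fixed list, with the Ensembl entry holding the most reads where a symbol had several, and all 36 were found among the 78899 genes of the deposited count table. Expression was measured by bulk RNA sequencing in microglia-like cells made from H1, an established human pluripotent stem cell line, carrying a GFP label in both culture types. The labels conflict on the source: they call the microglia iPSC-derived, yet give the line as H1 and the cell type as embryonic stem cells. Tri-culture cells (4 libraries) grew with other cells and without added cytokines, and mono-culture cells (4 libraries) grew alone with IL-34 at 100 ng/mL and M-CSF at 10 ng/mL. Both were harvested 2 weeks after plating and sorted by GFP fluorescence, so co-culture and the absence of the cytokines cannot be told apart. The labels used here name neither the partner cells nor the promoter that drives GFP. All libraries come from a single line, and each of the 4 batches that the labels call independent gave 1 library of each culture type.

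Integrins are transmembrane receptors built from an alpha and a beta chain, which bind matrix proteins or molecules on other cells. Talins and kindlins bind the beta chain tail and switch the receptor to its active state, and ILK, parvins, paxillin and vinculin join the engaged receptor to the cytoskeleton. In microglia and other macrophages the beta2 integrins take part in phagocytosis of complement-coated particles and in contact with other cells, and the integrin alphaVbeta8 releases TGF-beta, a cytokine that microglia need, from its latent form.

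The libraries held 17602010 to 24491765 reads in tri-culture and 17037481 to 33363972 in mono-culture. Of 16 microglia and macrophage markers, 5 were higher, 2 lower and 9 did not pass, beside 13.9% higher and 13.0% lower over all 16249 tested genes. Summed, these markers stood at 8258 to 9424 CPM (reads per 1000000 reads of the library) in tri-culture and 6217 to 7098 CPM in mono-culture. Of 17 astrocyte and neural progenitor markers 14 were higher and 1 was lower, with a sum of 718 to 907 CPM in tri-culture and 315 to 345 CPM in mono-culture, where AQP4, ALDH1L1, SOX2, HEPACAM and PTPRZ1 had no read and 12 of the 17 averaged under 1 CPM. All 17 were tested, so these 5 passed the filter on low counts through tri-culture alone, which favours a higher value there. Of 13 dendritic cell markers, 10 of them tested, 6 were higher and 1 was lower, with a sum of 388 to 536 CPM in tri-culture and 83.1 to 106 CPM in mono-culture, XCR1 having no read in tri-culture and FLT3 none in mono-culture. In mono-culture 7 of the 13 averaged under 1 CPM, so the filter can favour higher calls in this list too. Mesenchymal markers summed to 22.6 to 399.6 CPM in tri-culture, lowest in library 2, and to 19.0 to 37.4 CPM in mono-culture. Neuron markers summed to 30.7 to 63.1 CPM and 25.4 to 44.7 CPM, with SNAP25, STMN2, DCX and GAP43 at 0 in mono-culture. Endothelial markers summed to 6.29 to 16.0 CPM and 6.14 to 11.7 CPM. Markers of platelets and of T and NK lymphocytes stayed under 4 CPM in sum in every library of both groups, with PF4 and PPBP, the defining platelet genes, and GNLY at 0 throughout. The part of these other cell types in the results below was not tested.

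Integrin and adaptor transcripts moved in both directions, with all but 1 of the adaptors that changed lower in tri-culture. Of the 36 genes, 30 passed the filter on low counts and were tested. ITGB7, ITGB4, ITGB8, ITGB3, TLN2, ITGAV and ITGA9 rose (7 genes), and ITGA2, VCL, ITGA3, ITGAM, ITGAX, FERMT3, PARVB, ITGA6, PXN, FERMT2, ITGB2 and PARVG fell (12 genes), while 11 did not pass. ITGB4 alone entered the test through its tri-culture libraries only. Across all 16249 tested genes 26.9% passed, 13.9% higher and 13.0% lower, against 63.3% of the 30. The median log2 fold change, tri-culture over mono-culture, was -0.37 over the 30 and 0.02 over all tested genes. In 17 of the 30 the tri-culture libraries did not overlap the mono-culture libraries, 6 lying above and 11 below, whereas 30.2% of all tested genes were separated in this way, 19.4% above and 10.8% below. In bulk samples, fewer cells of a type and less RNA per cell cannot be told apart. Scaled by library size alone, the whole table had 2829 genes higher and 1663 lower in place of 2261 and 2112, the median of all genes was 0.12, and of the integrin and adaptor genes 8 were higher and 10 lower.

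**Figure D1:**
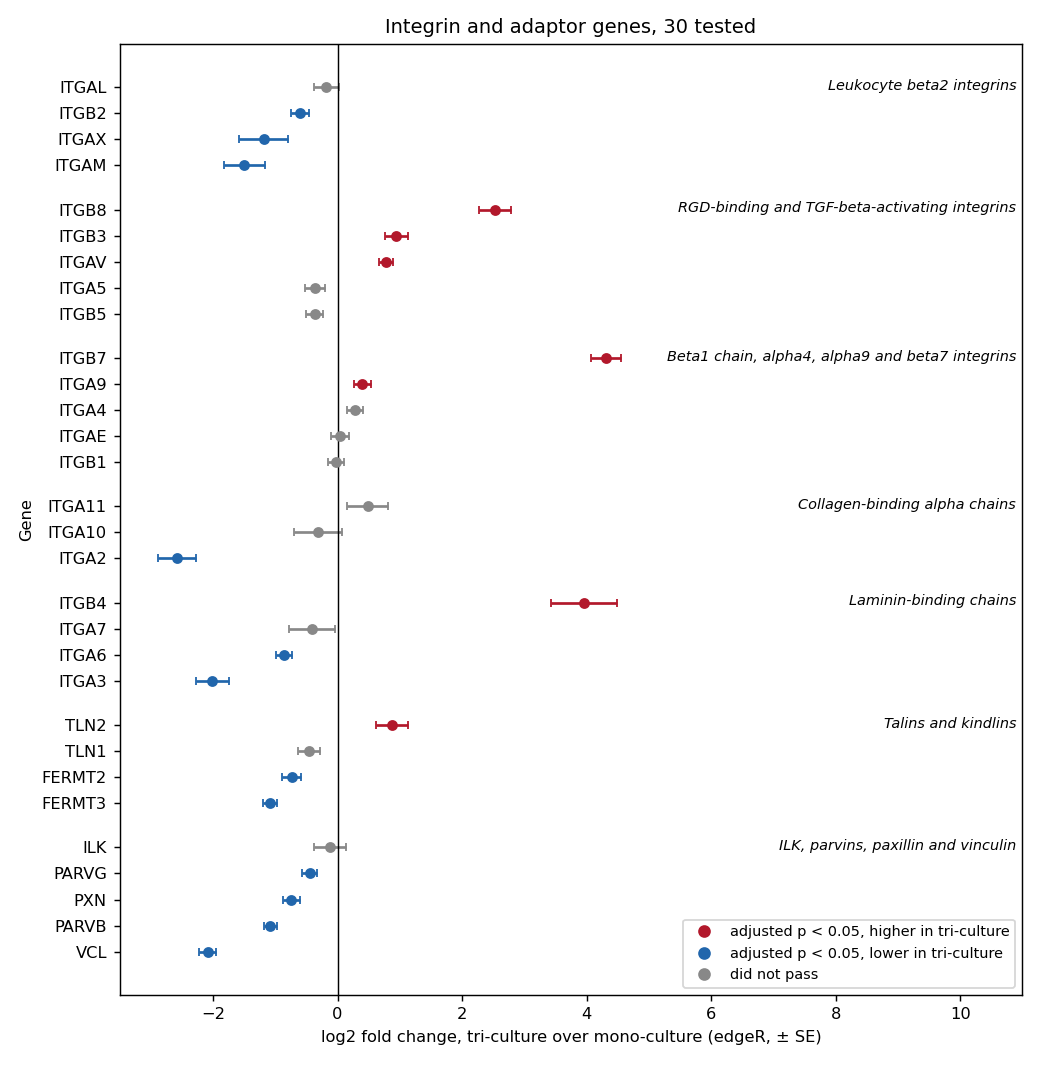
Log2 fold change of the 30 tested integrin and adaptor genes (x axis, tri-culture over mono-culture, edgeR estimate with its standard error), grouped by role down the page. ITGB7 at 4.31 and ITGB4 at 3.96 lie farthest to the right, ITGA2 at -2.58 and VCL at -2.08 farthest to the left, and among the adaptors TLN2 is the gene on the right.

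Upstream sequence is shown for the beta chain that rose most, for the TGF-beta-activating beta chain, for the alpha chain of complement receptor 3 and for the adaptor that fell most. RefSeq sequences on GRCh38.p14 matched 26 of the 36 genes, the first entry being used for genes with several. The bases shown are the 250 before the annotated start, in the direction of the gene, at chr12:53207252-53207501 (minus strand) for ITGB7, chr7:20330650-20330899 (plus strand) for ITGB8, chr16:31259725-31259974 (plus strand) for ITGAM and chr10:73997866-73998115 (plus strand) for VCL. These RefSeq starts can differ from the gene bounds of GENCODE 29 given below. The VCL stretch, most of the ITGB8 stretch and the ends of the ITGB7 and ITGAM stretches lie inside those bounds. The end of the ITGB7 stretch that lies inside holds its GAGGAA match. Capitals mark GAGGAA, the core bound by the macrophage factor PU.1, and GGGCGG, the GC box, each searched on both strands, so that the reverse complement is in capitals too.
ITGB7: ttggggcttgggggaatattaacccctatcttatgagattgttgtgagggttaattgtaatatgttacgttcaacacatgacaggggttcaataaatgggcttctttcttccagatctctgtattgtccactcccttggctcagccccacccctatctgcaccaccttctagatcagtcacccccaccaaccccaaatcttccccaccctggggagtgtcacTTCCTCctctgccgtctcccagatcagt
ITGB8: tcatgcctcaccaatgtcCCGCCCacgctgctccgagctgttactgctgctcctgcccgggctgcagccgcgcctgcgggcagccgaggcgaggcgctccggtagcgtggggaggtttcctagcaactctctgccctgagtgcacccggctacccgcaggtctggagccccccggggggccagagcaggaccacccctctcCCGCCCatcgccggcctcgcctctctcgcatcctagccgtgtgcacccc
ITGAM: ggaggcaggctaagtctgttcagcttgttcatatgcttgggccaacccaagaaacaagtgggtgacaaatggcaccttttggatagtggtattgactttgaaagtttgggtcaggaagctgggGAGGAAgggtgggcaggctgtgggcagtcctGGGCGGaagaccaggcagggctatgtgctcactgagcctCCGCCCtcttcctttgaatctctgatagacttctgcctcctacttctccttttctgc
VCL: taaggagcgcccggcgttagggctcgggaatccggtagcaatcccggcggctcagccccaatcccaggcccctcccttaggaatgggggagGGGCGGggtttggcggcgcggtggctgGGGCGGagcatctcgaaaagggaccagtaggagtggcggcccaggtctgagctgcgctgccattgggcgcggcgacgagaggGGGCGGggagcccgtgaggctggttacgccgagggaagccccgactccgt
The ITGB7 stretch held 1 GAGGAA match and no GC box, the ITGB8 stretch 2 GC boxes, the ITGAM stretch 1 GAGGAA and 2 GC boxes, and the VCL stretch 3 GC boxes. The GAGGAA core was found upstream of 8 of the 26 genes and in 23.6% of 35116 promoters of the same length, and the GC box upstream of 14 of the 26 and in 42.6%. The 8 with a GAGGAA match include genes that rose (ITGB7, ITGAV and TLN2), genes that fell (ITGAM and FERMT3) and genes that did not pass (ITGB1, ITGAE and ITGA11). A match is a description of these letters and not a binding site.

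Transcripts of the tested beta2 integrin chains of leukocytes were lower in tri-culture except for the alphaL chain, for which no difference passed. Of 4 tested genes of this group 3 fell and none rose, beside 13.0% lower and 13.9% higher over all tested genes. ITGB2 (ENSG00000160255, chromosome 21, 44885953 to 44931989), the beta chain shared by all of them, had 816, 703, 962 and 961 CPM in tri-culture libraries 1 to 4, against 1211, 1335, 1051 and 1273 CPM in mono-culture libraries 1 to 4. Every tri-culture library was below every mono-culture library. The fold change was modest (log2 fold change -0.61 ± 0.14 SE, adjusted p = 0.00605). ITGAM (ENSG00000169896, chromosome 16, 31259967 to 31332892) encodes alphaM, which with beta2 forms complement receptor 3, the receptor for the complement fragment iC3b, and is also a usual surface marker of microglia (CD11b). It had 39.8, 25.4, 90.8 and 102 CPM in tri-culture and 144, 137, 175 and 213 CPM in mono-culture. The groups did not overlap, and tri-culture libraries 1 and 2 were the lowest of all. The level was 2.82-fold lower in tri-culture (log2 fold change -1.50 ± 0.33 SE, adjusted p = 0.00383). Without tri-culture libraries 1 and 2 the log2 fold change was -0.97 (adjusted p = 0.000399) and without libraries 3 and 4 it was -2.39 (adjusted p = 3.04e-05), both runs chosen after seeing the data. With no filter on low counts the call was lost (adjusted p = 0.0893).

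ITGAX encodes alphaX (CD11c), the partner of beta2 in complement receptor 4, which is abundant on dendritic cells. It had 8.34, 17.2, 49.8 and 48.3 CPM in tri-culture and 49.8, 64.2, 72.1 and 70.9 CPM in mono-culture. Tri-culture libraries 1 and 2 were far below the rest, library 3 reached the level of the lowest mono-culture library, and library 4 lay just below it. The gene passed narrowly (log2 fold change -1.19 ± 0.39 SE, adjusted p = 0.0403). It no longer passed when mono-culture library 1, 2, 3 or 4 was removed (adjusted p = 0.0794, 0.0885, 0.119 and 0.108), when tri-culture library 2 was removed (0.132), or under DESeq2 (0.0974) or scaling by library size alone (0.0858). The ITGAX call was also lost with no filter on low counts (edgeR, adjusted p = 0.272) and with a stricter filter (0.0514). Without tri-culture libraries 1 and 2 the log2 fold change was -0.56 (adjusted p = 0.00736), and without libraries 3 and 4 it was -2.36 (adjusted p = 0.000177).

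ITGAL encodes alphaL, which with beta2 forms LFA-1, the receptor for ICAM-1. It had 186, 166, 311 and 365 CPM in tri-culture and 229, 259.6, 282 and 306 CPM in mono-culture. Libraries 1 and 2 of tri-culture were the lowest and libraries 3 and 4 the highest of the 8, so the groups overlapped (log2 fold change -0.18 ± 0.20 SE, adjusted p = 0.564). Without tri-culture libraries 3 and 4 the gene was lower (log2 fold change -0.64, adjusted p = 0.00328), and without libraries 1 and 2 the sign turned (0.16, adjusted p = 0.348). ITGAD, the alphaD chain, had 42 reads over all tri-culture libraries and 34 over all mono-culture libraries and was not tested. Dendritic cell markers, summed, were at 434, 536, 388 and 431 CPM in tri-culture libraries 1 to 4, and their part in these values was not tested.

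**Figure D2:**
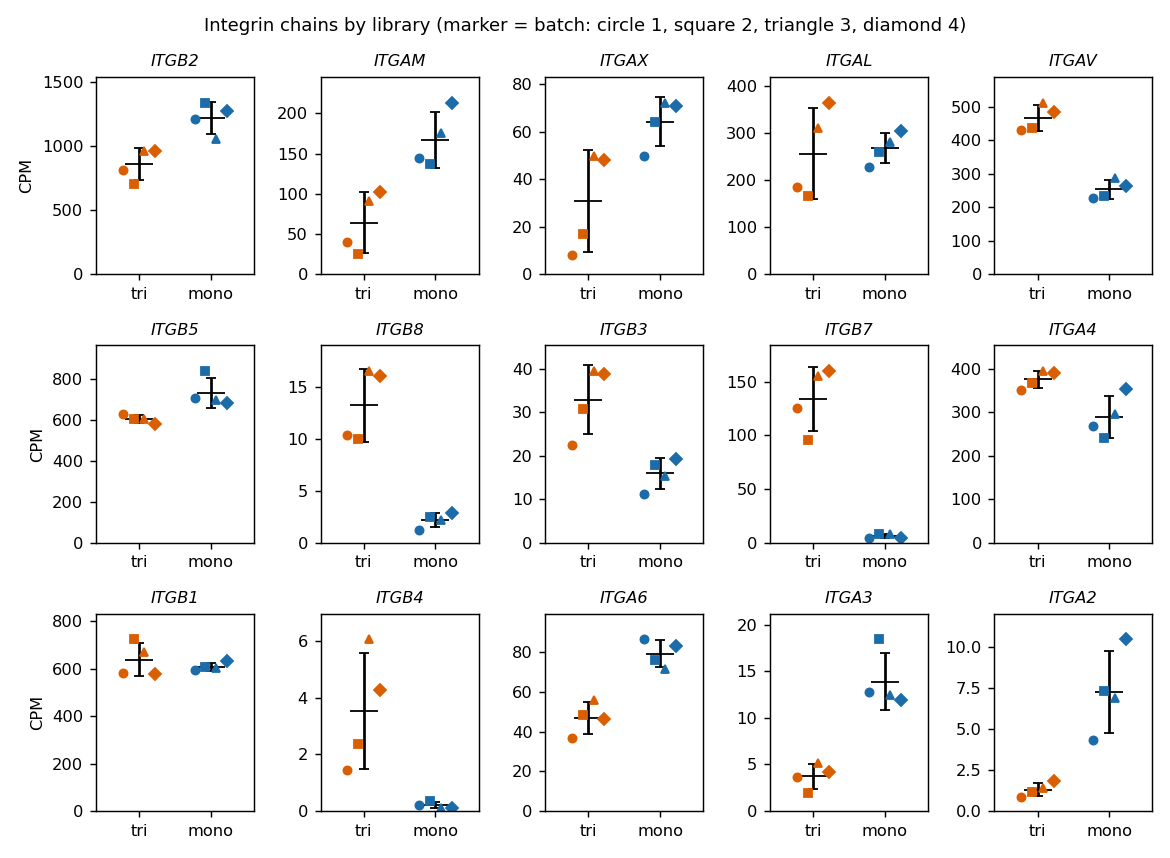
CPM of 15 integrin chains in each library (y axis from 0, tri-culture left of mono-culture in each panel, points for libraries, bars for the mean ± SD, n = 4 each). ITGB7, ITGB8, ITGB3, ITGB4 and ITGAV lie higher in all 4 tri-culture libraries, and ITGAM, ITGAX and ITGAL are lowest in tri-culture libraries 1 and 2 (circle and square).

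The composition of the beta2 family was compared on the authors' length-scaled signal, which allows levels of different genes to be set side by side. Of the summed signal of ITGAL, ITGAM, ITGAX and ITGAD, ITGAL made up 64.7% ± 6.62 in tri-culture and 41.9% ± 2.00 in mono-culture (SD, n = 4 each). ITGAM made up 25.3% ± 4.86 in tri-culture and 44.0% ± 3.04 in mono-culture. The shares of both chains were separated between the groups, from 58.0% to 71.0% in tri-culture and 39.8% to 44.6% in mono-culture for ITGAL. ITGAX held 4.38% to 13.0% in tri-culture and 12.7% to 15.4% in mono-culture, and ITGAD under 1% in every library. The signal of ITGAL was 2.02 to 3.86 times that of ITGAM in tri-culture and 0.844 to 1.12 times in mono-culture. Shares of a sum are tied to each other, so a higher share of ITGAL goes with the lower ITGAM and is not a rise of ITGAL.

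Chains of the alphaV integrins, which bind RGD motifs in matrix proteins and in latent TGF-beta, rose in part. Of 5 tested genes in the RGD-binding group 3 rose and none fell, beside 13.9% higher and 13.0% lower over all tested genes. ITGAV (ENSG00000138448, chromosome 2, 186590065 to 186680901), the alpha chain they share, had 430.1, 437, 512 and 485 CPM in tri-culture and 229.7, 234, 288 and 264 CPM in mono-culture. Every tri-culture library was above every mono-culture library, and the libraries of a group lay close together. It was 1.72-fold higher (log2 fold change 0.78 ± 0.11 SE, adjusted p = 0.000135). ITGB8 (ENSG00000105855, chromosome 7, 20330702 to 20415754), the beta chain of the TGF-beta-activating alphaVbeta8, had 10.4, 9.96, 16.5 and 16.0 CPM in tri-culture and 1.23, 2.44, 2.16 and 2.82 CPM in mono-culture. All tri-culture libraries were higher, libraries 3 and 4 the most. The rise was 5.76-fold (log2 fold change 2.53 ± 0.26 SE, adjusted p = 1.31e-05). On the scale of log2(signal + 1), which compresses low values, it was 1.39. ITGB8 is also expressed by astrocytes and neural progenitors, whose markers summed to 718, 836, 907 and 797 CPM in the same tri-culture libraries and whose part was not tested.

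ITGB3, the beta3 chain that forms the vitronectin receptor with alphaV, had 22.5, 30.7, 39.4 and 38.8 CPM in tri-culture and 11.2, 17.8, 15.4 and 19.2 CPM in mono-culture. The groups did not overlap, and the difference was 1.92-fold (log2 fold change 0.94 ± 0.19 SE, adjusted p = 0.00212). Exons of another annotated gene on the same strand cover 51.6% of its exon bases, so its count is uncertain. ITGB5, the beta5 chain, which takes part in uptake of apoptotic cells by phagocytes, had 630.5, 604, 606 and 581 CPM in tri-culture and 709, 839, 698 and 681 CPM in mono-culture. All tri-culture libraries lay below the mono-culture libraries, yet the difference just missed the threshold (log2 fold change -0.37 ± 0.13 SE, adjusted p = 0.0502). A fit blocked on batch called it lower (adjusted p = 0.0312), and so did DESeq2 (0.0193) and a fit lacking tri-culture library 1 (0.0429). ITGA5, the alpha chain of the fibronectin receptor, averaged 96.9 ± 24.3 CPM in tri-culture and 116 ± 17.4 CPM in mono-culture (adjusted p = 0.110), and the fit blocked on batch called it lower (0.0304).

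On the length-scaled signal, ITGB5 dominated the beta chains that can pair with alphaV in both culture types. Its share of the sum of ITGB1, ITGB3, ITGB5, ITGB6 and ITGB8 was 73.0% ± 2.33 in tri-culture and 79.0% ± 1.75 in mono-culture. ITGB1, whose product pairs with many other alpha chains, held 22.3% ± 1.93 in tri-culture and 19.2% ± 1.56 in mono-culture. ITGB8 held 0.716% ± 0.200 in tri-culture and 0.105% ± 0.0333 in mono-culture, so it remained the least of the 4 detected chains. The signal of ITGAV was 23.8 to 34.6 times that of ITGB8 in tri-culture and 73.9 to 148 times in mono-culture. These levels do not show which chains pair in the cells.

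**Figure D3:**
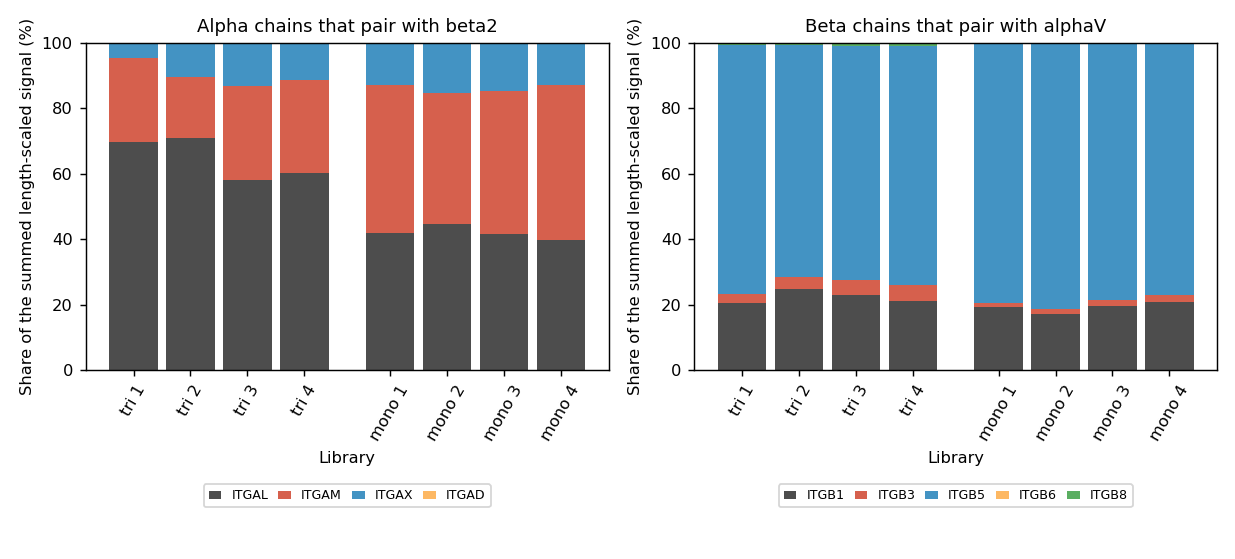
Share of the summed length-scaled signal (y axis, percent) of the alpha chains that pair with beta2 (left) and of the beta chains that pair with alphaV (right), one bar per library, tri-culture left of mono-culture. ITGAL takes 58.0% to 71.0% of the beta2 partners in tri-culture and 39.8% to 44.6% in mono-culture, and ITGB5 the larger part of the alphaV partners in every library.

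Among the alpha4, beta7 and beta1 integrins, the beta7 chain changed and its partners little or not at all past the test. Of 5 tested genes 2 rose and none fell, beside 13.9% higher and 13.0% lower over all tested genes. ITGB7 (ENSG00000139626, chromosome 12, 53191318 to 53207307) pairs with alpha4 as the receptor for MAdCAM-1 and VCAM-1 and with alphaE as the receptor for E-cadherin. It had 125, 95.5, 155 and 159.8 CPM in tri-culture and 4.24, 7.88, 8.45 and 4.40 CPM in mono-culture. Every tri-culture library was above every mono-culture library. The rise, the largest of the 30 genes, was 19.9-fold (log2 fold change 4.31 ± 0.24 SE, adjusted p = 8.27e-08). Exons of ZNF740 on the opposite strand cover 42.1% of its exon bases, and ZNF740 stood at 70.1 ± 5.44 CPM in tri-culture and 55.0 ± 6.58 CPM in mono-culture (adjusted p = 0.146). In the same libraries dendritic cell markers summed to 388 to 536 CPM in tri-culture and 83.1 to 106 CPM in mono-culture, and their part was not tested. T and NK lymphocyte markers, which mark cells rich in beta7, stayed under 4 CPM in sum in each library, and their part was not tested either.

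ITGA4, the alpha4 chain, had 351, 366, 394 and 389 CPM in tri-culture and 268, 240.5, 296 and 353 CPM in mono-culture. The value was higher in tri-culture in each of the 4 batches, but mono-culture library 4 lay within the tri-culture range and the difference did not pass (log2 fold change 0.28 ± 0.12 SE, adjusted p = 0.110). It passed without mono-culture library 4 (0.0412) and with library size only (0.0426). ITGAE, the alphaE chain, averaged 12.3 ± 1.24 CPM in tri-culture and 11.2 ± 0.516 CPM in mono-culture (adjusted p = 0.871). The length-scaled signal of ITGA4 was 1.02 to 1.61 times that of ITGB7 in tri-culture and 12.8 to 33.5 times in mono-culture, so ITGB7 came close to its alpha partner in tri-culture.

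ITGB1, the common beta chain of the matrix receptors, had 583, 725, 669.7 and 579.6 CPM in tri-culture and 594, 607, 604 and 632 CPM in mono-culture. The groups overlapped, with tri-culture libraries at both ends, and the log2 fold change was -0.02 ± 0.12 SE (adjusted p = 0.918), its sign turning with library size as the only scaling. ITGA9, the alpha9 chain, whose ligands include tenascin C, had 62.5, 50.4, 72.6 and 76.6 CPM in tri-culture and 44.4, 48.8, 39.4 and 52.9 CPM in mono-culture. Tri-culture was higher in every batch, though library 2 fell within the mono-culture range. The gene passed at the margin (log2 fold change 0.40 ± 0.14 SE, adjusted p = 0.0479). It no longer passed when mono-culture library 1, 2, 3 or 4 was removed (adjusted p = 0.0996, 0.0655, 0.141 and 0.0544), when tri-culture library 1, 3 or 4 was removed (0.0797, 0.115 and 0.1105), or under DESeq2 (0.0669) or RLE scaling (0.0519). The ITGA9 call was also lost with no filter on low counts (edgeR, adjusted p = 0.06385) and without tri-culture libraries 3 and 4 (0.244). In limma it was lost on log2(signal + 0.1) (adjusted p = 0.05905) and on log2(signal + 1) (0.0597).

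Transcripts of the alpha chains of laminin and collagen receptors were lower in tri-culture where they changed. ITGA6 (ENSG00000091409, chromosome 2, 172427354 to 172506282), the alpha6 laminin receptor chain, had 36.6, 48.5, 56.0 and 46.1 CPM in tri-culture and 86.4, 75.9, 71.4 and 83.1 CPM in mono-culture. The groups did not overlap, and the level was 1.82-fold lower in tri-culture (log2 fold change -0.86 ± 0.13 SE, with an adjusted p of 0.000241). ITGA3, a further laminin receptor chain, had 3.63, 1.96, 5.10 and 4.20 CPM in tri-culture and 12.8, 18.4, 12.4 and 11.9 CPM in mono-culture. All tri-culture libraries were below all mono-culture libraries, by 4.03-fold on average (log2 fold change -2.01 ± 0.26 SE, adjusted p = 8.00e-05). ITGA2, the collagen receptor chain known from platelets, had 0.852, 1.14, 1.40 and 1.82 CPM in tri-culture and 4.33, 7.31, 6.89 and 10.4 CPM in mono-culture. The groups did not overlap, and this was the largest fitted decrease among the 30 genes (log2 fold change -2.58 ± 0.30 SE, adjusted p = 3.80e-05). Its reads were few, 108 in all tri-culture and 683 in all mono-culture libraries, and on the scale of log2(signal + 1) the difference was -1.45.

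ITGB4, the partner of alpha6 in epithelial attachment sites, went the other way at a low level. It had 291 reads over the tri-culture libraries and 20 over the mono-culture libraries, at 1.44, 2.37, 6.06 and 4.26 CPM in tri-culture and 0.226, 0.363, 0.120 and 0.117 CPM in mono-culture. The groups did not overlap (log2 fold change 3.96 ± 0.53 SE, adjusted p = 9.98e-05). No mono-culture library reached the count filter, which therefore favoured a difference. Without tri-culture libraries 3 and 4 the log2 fold change was 3.16 (adjusted p = 0.00104), and on the scale of log2(signal + 1) it was 1.09. Astrocyte and progenitor markers were highest in tri-culture library 3, as was ITGB4, and their part was not tested. ITGA7, ITGA10 and ITGA11 averaged under 5 CPM in each group and did not pass (adjusted p = 0.474, 0.609 and 0.333).

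Of the 5 genes with no test besides ITGAD, none exceeded 49 reads over the 8 libraries. ITGA1, a collagen receptor chain, had 17 reads in tri-culture and 32 in mono-culture. ITGA2B, the platelet alphaIIb chain, had 14 and 13, and FERMT1, the epithelial kindlin, 17 and 8. ITGA8 had 16 reads in tri-culture, 13 of them in library 1, and ITGB6 had 1, whereas neither had a read in mono-culture, which allows up to 0.0298 CPM (3 reads over the group, counting error only).

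Transcripts of the cytoplasmic adaptors were lower in tri-culture with few exceptions. Of 9 tested, 6 fell, 1 rose and 2 did not pass, beside 13.0% lower and 13.9% higher over all tested genes. The median log2 fold change of the 9 was -0.74, beside 0.02 for all tested genes. FERMT3 (ENSG00000149781, chromosome 11, 64206678 to 64223886) encodes kindlin-3, the kindlin of blood cells, without which leukocyte and platelet integrins fail to activate. It had 205, 188, 247 and 242 CPM in tri-culture and 398, 460.5, 427 and 459 CPM in mono-culture. The groups were well separated, with tri-culture lower (log2 fold change -1.08 ± 0.12 SE, adjusted p = 1.62e-05). FERMT2, kindlin-2, which most other cell types use, had 23.1, 28.1, 39.3 and 26.2 CPM in tri-culture and 48.6, 40.1, 46.3 and 46.7 CPM in mono-culture. It too was lower in every tri-culture library (log2 fold change -0.74 ± 0.15 SE, adjusted p = 0.00215).

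TLN1, talin-1, the main integrin activator of blood cells, had 497, 405, 724 and 793 CPM in tri-culture and 789, 636, 798 and 864 CPM in mono-culture. Tri-culture was lower in each batch, but libraries 3 and 4 lay within the mono-culture range. The difference did not pass (log2 fold change -0.46 ± 0.18 SE, adjusted p = 0.0766). Blocked on batch, TLN1 was called lower (adjusted p = 0.0108), as under DESeq2 (0.0389), on removal of tri-culture library 4 (0.0272) and on removal of tri-culture libraries 3 and 4 (log2 fold change -0.80, adjusted p = 0.00209). TLN2, talin-2, found in brain and muscle, had 3.99, 4.53, 6.40 and 7.10 CPM in tri-culture and 2.39, 1.87, 3.45 and 3.46 CPM in mono-culture. It was higher in every tri-culture library (log2 fold change 0.87 ± 0.25 SE, adjusted p = 0.0214), but removing mono-culture library 1 or 2 ended the call (adjusted p = 0.0563 and 0.0612), as did removing tri-culture library 3, library 4 or both (0.0616, 0.0610 and 0.177). The TLN2 call was also lost in limma on log2(signal + 0.1) (adjusted p = 0.0561). On the length-scaled signal TLN2 made up 0.405% ± 0.0474 of the talins and kindlins in tri-culture and 0.140% ± 0.0314 in mono-culture, beside 72.3% ± 3.92 and 64.4% ± 3.47 for TLN1.

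The linkers to actin included the adaptor that fell most. VCL (ENSG00000035403, chromosome 10, 73995193 to 74121363) encodes vinculin, which binds talin and actin and strengthens adhesions under tension. It had 17.3, 18.1, 21.7 and 21.6 CPM in tri-culture and 68.0, 64.7, 82.5 and 97.0 CPM in mono-culture. All tri-culture libraries lay far below the mono-culture libraries, and the level was 4.24-fold lower (log2 fold change -2.08 ± 0.13 SE, adjusted p = 2.48e-07). Exons of AP3M1 on the opposite strand cover 11.1% of the VCL exon bases. AP3M1 stood at 125 ± 8.69 CPM in tri-culture and 96.0 ± 6.88 CPM in mono-culture (edgeR, adjusted p = 0.0589). PARVB, beta-parvin, a partner of ILK, had 35.7, 31.8, 37.9 and 34.5 CPM in tri-culture and 64.7, 71.5, 70.4 and 70.2 CPM in mono-culture. The spread within each group was small beside the gap between them (log2 fold change -1.08 ± 0.10 SE, adjusted p = 6.85e-06). PXN, paxillin, a scaffold of focal adhesions, had 55.5, 38.4, 59.8 and 69.0 CPM in tri-culture and 86.0, 77.8, 91.0 and 92.0 CPM in mono-culture. The groups did not overlap (log2 fold change -0.74 ± 0.14 SE, adjusted p = 0.00143). Exons on the opposite strand cover 12.4% of the PXN exon bases.

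PARVG, gamma-parvin, the parvin of blood cells, had 73.5, 81.2, 105 and 103 CPM in tri-culture and 101, 122, 121 and 117 CPM in mono-culture. Tri-culture was lower in each batch, with libraries 3 and 4 just above the lowest mono-culture library (log2 fold change -0.45 ± 0.12 SE, adjusted p = 0.0106). The call was lost with library size as the only scaling (adjusted p = 0.0689), and antisense exons cover 38.4% of its exon bases. ILK, the integrin-linked kinase, averaged 3.96 ± 1.09 CPM in tri-culture and 4.01 ± 1.17 CPM in mono-culture (adjusted p = 0.791). Exons of TAF10 and other genes on the opposite strand cover 78.5% of its exon bases, so these counts may not stand for its level. In the libraries in which these adaptors were lower, the summed microglia and macrophage markers were at 8258 to 9424 CPM in tri-culture and 6217 to 7098 CPM in mono-culture. Of these 16 markers 5 were higher, 2 lower and 9 did not pass, beside 13.9% higher and 13.0% lower over all tested genes. The part of cell content in the adaptor values was not tested.

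**Figure D4:**
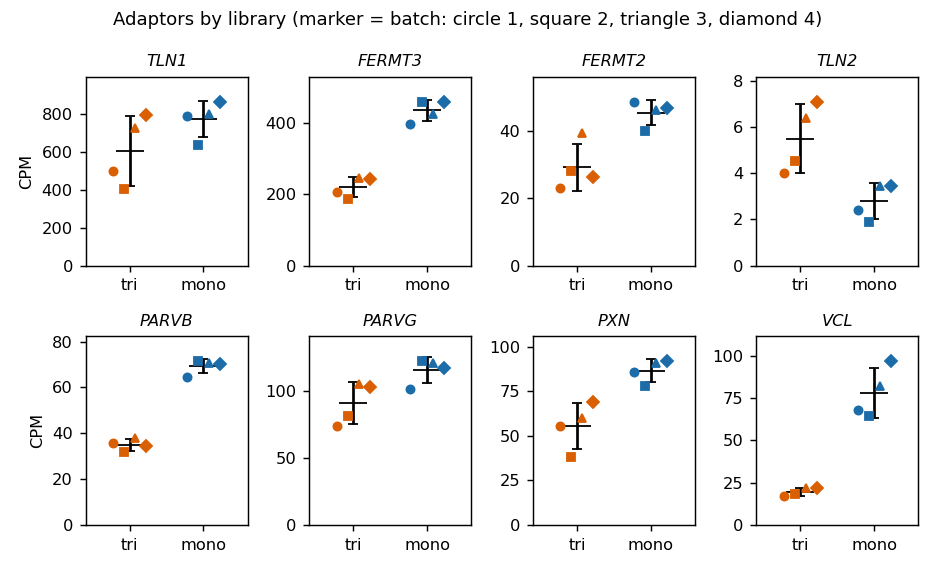
CPM of 8 adaptor genes in each library (y axis from 0, tri-culture left of mono-culture, points for libraries, bars for the mean ± SD, n = 4 each). VCL, FERMT3, PARVB, FERMT2 and PXN lie lower in all 4 tri-culture libraries, TLN2 lies higher, and TLN1 overlaps.

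The order of levels on the length-scaled signal changed below its top places. ITGB2, ITGB5 and TLN1 were the 3 highest in both groups, at means of 321 ± 34.2, 311 ± 26.5 and 211 ± 53.7 in tri-culture and 485 ± 58.2, 399 ± 45.3 and 289 ± 34.6 in mono-culture. ITGB2 and ITGB5 did not differ beyond their spread in tri-culture. There, ITGA4 (123 ± 3.60), ITGB7 (104 ± 19.0), ITGB1 (95.2 ± 13.2), ITGAL (89.9 ± 29.1) and ITGAV (84.2 ± 4.47) followed, and neighbours from ITGB7 to ITGAV overlapped. In mono-culture FERMT3 (139 ± 9.26) came next, before ITGAM (107 ± 20.5), ITGAL (101 ± 10.3), ITGA4 (101 ± 15.5) and ITGB1 (96.1 ± 3.19), which overlapped. ITGB7 stood at place 5 of the 36 genes in tri-culture and 22 in mono-culture, and ITGAM at place 11 in tri-culture and 5 in mono-culture. The median coefficient of variation of CPM over the 30 tested genes was 23.6% in tri-culture and 15.4% in mono-culture, with ITGAX at 68.8% and 16.0% and ITGAM at 58.4% and 20.7%.

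Other genes of integrin signalling and linkage included kinases that rose and talin-binding proteins that fell. Of 49 listed genes 47 were tested, 18 fell, 6 rose and 23 did not pass, beside 13.0% lower and 13.9% higher over all tested genes, and the median log2 fold change was -0.31. KANK2 and KANK1, talin-binding proteins at the rim of adhesions, were lower, at 10.8 ± 2.56 CPM in tri-culture and 49.7 ± 11.8 CPM in mono-culture for KANK2 (log2 fold change -2.31 ± 0.20 SE, adjusted p = 3.12e-06) and at 19.5 ± 3.31 and 52.5 ± 10.7 CPM for KANK1 (-1.53 ± 0.16 SE, adjusted p = 1.18e-05). The 2 focal adhesion kinases moved in opposite directions. PTK2, the focal adhesion kinase FAK, had 15.7, 16.4, 19.0 and 18.9 CPM in tri-culture and 41.5, 44.2, 63.6 and 70.3 CPM in mono-culture. PTK2B, its relative PYK2, which macrophages express, had 124, 104, 131 and 142 CPM in tri-culture and 65.1, 72.3, 71.4 and 67.0 CPM in mono-culture. Neither gene's groups overlapped, and the log2 fold changes were -1.74 ± 0.16 SE for PTK2 (adjusted p = 4.54e-06) and 0.76 ± 0.10 SE for PTK2B (adjusted p = 0.000126). SRC, a kinase that acts with both, rose 2.04-fold to 68.7 ± 10.9 CPM in tri-culture, against 31.3 ± 4.94 CPM in mono-culture (adjusted p = 7.48e-05). SYK, which signals below beta2 integrins and Fc receptors, stood at 557 ± 31.2 CPM in tri-culture and 372 ± 35.4 CPM in mono-culture (adjusted p = 0.00682). RASGRP2, an activator of the integrin regulator RAP1, was 2.14-fold higher (adjusted p = 0.00283), and the tetraspanin CD82 2.38-fold lower (adjusted p = 1.09e-05).

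Of 41 listed genes of integrin ligands 31 were tested, of which 12 rose and 10 fell, beside 13.9% higher and 13.0% lower over all tested genes. Of the 12, JAM3, LTBP1, CDH1, LAMA4 and CCN2 passed the count filter through tri-culture alone, which favours a higher value there. VTN also passed it through tri-culture alone but was not called (edgeR, adjusted p = 0.0864). The 12 and the median log2 fold change of 0.25 therefore describe the tested genes only. C3, the source of the iC3b bound by complement receptors 3 and 4, had 4131, 2453, 3991 and 4843 CPM in tri-culture and 284, 274, 382 and 252 CPM in mono-culture. It rose 12.1-fold (log2 fold change 3.59 ± 0.22 SE, adjusted p = 1.50e-07), with no overlap, beside the lower ITGAM. CDH1, E-cadherin, the ligand of alphaEbeta7, had 3.54, 4.82, 7.41 and 5.17 CPM in tri-culture and no more than 0.210 CPM in any mono-culture library (10 reads in all). It entered the test through its tri-culture libraries alone, where it was higher in all 4, so the filter favoured a difference. The fitted log2 fold change was 5.60 ± 0.50 SE (adjusted p = 3.68e-06), and 6.59 without mono-culture library 3. JAM2, a junctional molecule that binds leukocyte integrins, was higher, at 6.17 ± 2.06 CPM in tri-culture and 0.714 ± 0.177 CPM in mono-culture (adjusted p = 1.55e-05). Its relative JAM3 had 187 reads in tri-culture and 9 in mono-culture, and it too was tested through tri-culture alone (adjusted p = 1.16e-05). ICAM1, the ligand of LFA-1, had 36.9, 37.0, 55.9 and 46.8 CPM in tri-culture and 90.1, 109, 124 and 99.5 CPM in mono-culture, a decrease with no overlap (log2 fold change -1.36 ± 0.14 SE, adjusted p = 1.04e-05). NRROS, which holds latent TGF-beta on microglia for release by alphaVbeta8, had 31.2, 30.1, 48.6 and 50.5 CPM in tri-culture and 111, 124, 104 and 103 CPM in mono-culture. Its groups did not overlap either (log2 fold change -1.58 ± 0.16 SE, adjusted p = 1.02e-05), so it fell where ITGB8 rose. NID1, nidogen-1, was 8.73-fold lower (adjusted p = 5.85e-06) and LAMC1, the laminin gamma1 chain, 1.74-fold lower (adjusted p = 0.000116). Among the ligand genes COL1A1 and COL1A2 are also in the mesenchymal list, and astrocyte and mesenchymal cells make several others, a share that was not tested.

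**Figure D5:**
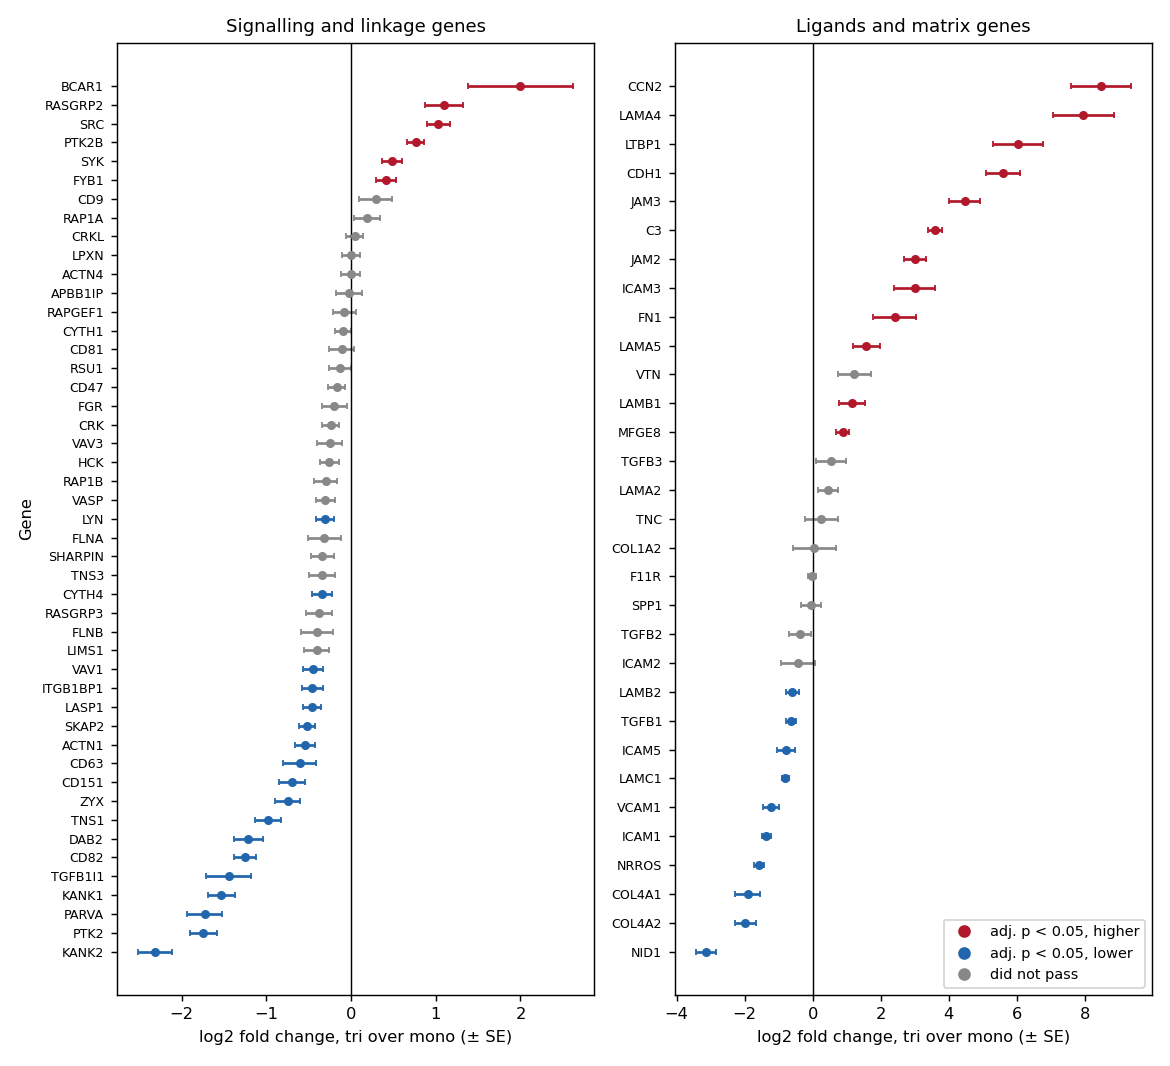
Log2 fold change (x axis, tri-culture over mono-culture, edgeR estimate with its standard error) of the tested signalling and linkage genes (left, 47) and ligand genes (right, 31). Most coloured points on the left lie below 0, while on the right they lie on both sides. LAMA4 and CCN2 had no mono-culture read, so their plotted values depend on the prior count.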

How the data were processed

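RNA of GFP-sorted microglia from 4 tri-culture and 4 mono-culture libraries was analysed. The deposited table holds whole-number counts per Ensembl gene, and the submitters' processing notes name GRCh38, HISAT2 2.1.0 and featureCounts 2.12.3. For the annotation, strand setting and overlapping genes, the handling is not given in the sources used here. The other table, which the authors named TPM, holds a length-scaled signal whose library totals ran from 0.866 to 1.14 in units of 1000000, so it was rescaled by an unstated factor. In 8088 genes with at least 200 reads in every library its value per read kept a constant ratio between libraries within 0.0613%.

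Symbols came from a table of gene identifiers, and coordinates, strands and exon overlaps from GENCODE 29 on GRCh38. Counts were filtered with filterByExpr (minimum count 10, minimum total 15), scaled with TMM and entered into the robust quasi-likelihood test of edgeR 4.0.16 in R 4.3.3 with the culture type as the term, with Benjamini-Hochberg adjustment over all 16249 tested genes and a threshold of 0.05. CPM is per 1000000 reads of the library, without TMM factors. The SE of a log2 fold change is its absolute value over the square root of F. On simulated counts for these 16249 genes of this comparison, the test recovered 12 of 50 genes changed 1.5-fold, 31 of 50 changed 2-fold, 44 of 50 changed 4-fold and 45 of 50 changed 8-fold, and 7 unchanged genes were called. Only these sets were changed in the simulation, whereas 4373 genes passed in the data. The adjusted threshold was therefore stricter in the simulation, and recovery in the data can be higher.

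The labels number 4 batches shared by both culture types, so the numbers pair the libraries. Within pairs, deviations from group means had correlations of 0.185, 0.126, 0.264 and 0.0796 in batches 1 to 4, against a highest value with another batch of 0.233, 0.0712, 0.0709 and 0.36, so batches 1 and 4 did not correlate best with their own number. A fit blocked on batch was an alternative. With 1 library of each culture type in a batch, no batch can be tested alone. Replicates differed by more than sampling noise (chi-square per degree of freedom 9.21 to 65.1). Other alternatives were RLE factors, library size only, other filters, DESeq2 1.42.0, limma 3.58.1 on log2(signal + 1) or log2(signal + 0.1), and libraries left out. The genes described and the lists were chosen with earlier results of these data known. Values per library are given for called genes with a mean of at least 5 CPM in a group and for ITGB2, ITGAM, ITGAX, ITGAL, ITGAV, ITGB1, ITGB5, ITGB8, TLN1 and FERMT3. ITGB4 and ITGA4 were added after their values were seen. From the lists of signalling genes and ligands, up to 4 genes per direction with the smallest adjusted p are named.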

Additional observations from a re-analysis of the deposited data

Results flagged for a closer look

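ITGA3, a laminin receptor chain, stood at 18.4 CPM in mono-culture library 2, far from the other mono-culture libraries at 12.8, 12.4 and 11.9 CPM. It was the 1 value that stood apart from its group in this way among 60 gene and group combinations with at least 40 reads, and chance gives such a value in about 1 of 20 groups. Without mono-culture library 2 ITGA3 remained lower in tri-culture (log2 fold change -1.83, edgeR, adjusted p = 0.00051).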

How the results depend on the processing

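Of the 19 integrin and adaptor genes called, 14 kept their call under all 18 alternatives, and of the 11 not called, 6 stayed so. The exceptions were ITGAM, ITGAX, ITGA9, TLN2 and PARVG among the called and ITGAL, ITGB5, ITGA5, ITGA4 and TLN1 among the others. No called gene reversed its sign. The count of higher genes ran from 5 to 7 and of lower genes from 11 to 13 with each library left out in turn, and the counts stayed within 1.5 times the reported ones in every alternative. The batch block changed no call other than those of ITGB5, ITGA5 and TLN1, which became lower (7 higher and 15 lower in all). The named signalling and ligand genes kept their calls in every alternative that tested them. Low counts limit ITGB4, ITGA2 and TLN2, whose fold changes shrink on a log2(signal + 1) scale. Recovery of 1.5-fold changes was low on simulated counts, in which far fewer genes changed than were called in the data. A gene that did not pass is not shown to be level. Where calls were lost, the cause was not tested.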

Other observations

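Further ligand genes of laminin and collagen receptors are given as values, chosen after those values were seen. Of the 6 laminin chain genes tested from the ligand list, LAMA4, LAMA5 and LAMB1 were higher, LAMB2 and LAMC1 lower, and LAMA2 did not pass (edgeR, adjusted p = 0.285). Over all tested genes 13.9% were higher and 13.0% lower. LAMA5 stood at 5.08 ± 3.09 CPM in tri-culture and 1.57 ± 0.282 CPM in mono-culture (adjusted p = 0.00986), LAMB1 at 6.61 ± 3.42 and 2.77 ± 0.526 CPM (adjusted p = 0.0387), and LAMB2 at 49.7 ± 17.3 and 69.9 ± 5.07 CPM (adjusted p = 0.0294). LAMA4 had 116 reads over the tri-culture libraries and none in mono-culture, and entered the test through tri-culture alone. COL4A1 and COL4A2, the main collagen IV chains, were lower, at 8.08 ± 4.90 and 5.87 ± 2.70 CPM in tri-culture, against 28.1 ± 6.13 and 21.4 ± 4.95 CPM in mono-culture (adjusted p = 0.00166 and 0.000289). PARVA, the alpha-parvin of most tissues and a gene of the signalling and linkage list, stood at 4.51 ± 0.766 CPM in tri-culture and 14.1 ± 2.64 CPM in mono-culture (lower, adjusted p = 4.21e-05).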
